A study of Homo sapiens with 12 samples.

Results

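The 88 genes described here encode RAB small GTPases, the ARF and SAR1 GTPases, and the coat and sorting proteins of membrane traffic, and they were chosen by symbol from the 6777 genes measured in MDA-MB-231, a widely used human breast cancer line of the triple-negative kind. They comprise 30 RAB, 5 ARF and 2 SAR1 GTPases, 7 COPI coat genes, 8 COPII coat genes, 3 SEC22 genes, 22 genes with a VPS symbol and 11 subunits of the clathrin adaptors AP-1, AP-2 and AP-3. AZD0095 cells had been exposed for 4 h to 10 nM AZD0095, which blocks MCT4, the lactate exporter encoded by SLC16A3, and DMSO cells for the same time to the solvent. Each treatment had 3 RNA-seq libraries and 3 ribosome footprint libraries, 12 in all. Whether replicates came from separate cultures is not stated in the labels, and the p-values then measure only how far these libraries spread, part of which may be technical.

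Membrane traffic moves proteins and lipids between organelles in coated vesicles. A GTPase of the ARF or SAR1 family loads onto the donor membrane and recruits a coat: SAR1 recruits COPII for export from the endoplasmic reticulum, and ARF1 recruits COPI at the Golgi and AP-1 or AP-3 at the trans-Golgi network and endosomes. RAB GTPases then mark the identity of the vesicle and its target and bind motors and tethers, and SNARE proteins fuse the membranes. Most VPS genes encode the endosomal side of this system, which in MDA-MB-231 and other invasive cells also recycles integrins and delivers proteases: retromer returns cargo, HOPS and CORVET tether membranes, GARP and EARP receive vesicles, and the ESCRT machinery sorts ubiquitinated cargo for degradation. VPS72 carries the same prefix but is known as a subunit of a chromatin remodelling complex.

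The deposited values are FPKM, fragment counts divided by gene length and library size, so each value is relative to the rest of its library and fewer transcripts per cell cannot be told apart from more of other transcripts. Every listed gene was at or above 1.002 FPKM in all 12 libraries, so family members below that level in any library are not listed. RefSeq holds 143 protein-coding human genes with symbols of this pattern. All 5 ARF, both SAR1 and all 3 SEC22 genes were listed, against 30 of 63 RAB genes and 22 of 35 VPS genes. RAB3A, RAB3B, RAB3C, RAB3D and RAB27B, known for regulated secretion, and the lipid transfer proteins VPS13A, VPS13B, VPS13C and VPS13D were among those not listed. The footprint libraries were shallow, with 141122, 217366 and 501351 implied reads in AZD0095 cells and 123859, 107087 and 192324 in DMSO cells, and RNA depth could not be recovered and is unknown. Among RNA libraries, replicate 1 of both groups stood apart from replicates 2 and 3, as shown beside the results it touches. All 7 genes taken as markers of this line (VIM, CD44, EGFR, CAV1, AXL, S100A4 and MSN) were listed. Of 8 genes taken as low in it, 6 (among them ESR1, PGR and CDH1) were not listed, and ERBB2 (15.4 to 21.4 FPKM) and EPCAM (9.33 to 12.5 FPKM) were.

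After AZD0095 the RNA of 4 members rose and that of 1 fell. RAB43, RAB29, VPS33B and RAB8B were higher and ARF6 was lower, while no COPI, COPII, AP, SAR1 or SEC22 gene passed the test. The 5 genes called (adjusted p under 0.05, limma on log2(FPKM + 1), Benjamini-Hochberg over 6777 genes) are 5.68% of the members, below the background of 8.04% of all genes. Calls of higher RNA were 4.55% of members against 5.03% of all genes, and calls of lower RNA 1.14% against 3.01%. By number of calls the trafficking genes therefore did not stand above the rest of the transcriptome.

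RAB43, a RAB known for traffic between the endoplasmic reticulum and the Golgi, had the lowest RNA of the listed RABs. It had 2.94, 3.58 and 3.85 FPKM in AZD0095 cells, against 1.2, 1.75 and 1.6 FPKM in DMSO cells. Every AZD0095 library was above every DMSO library, and the log2 fold change was 0.82 ± 0.12 (SE, limma adjusted p = 0.0075), which understates the change of so low a gene because of the pseudocount of 1. With a pseudocount of 0.1 it was 1.14 and with one of 5 it was 0.37. The gene spans chromosome 3 from 129087569 to 129122150 (GRCh38.p14) and lies within the readthrough gene ISY1-RAB43, and how reads of these overlapping genes were assigned is not stated in the labels.

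RAB29, a trans-Golgi and lysosomal RAB known as a binding partner of the kinase LRRK2, had 19, 18.5 and 18.2 FPKM in AZD0095 cells, against 15.2, 13 and 12.6 FPKM in DMSO cells. The groups were clear of each other (log2 fold change 0.43 ± 0.09 SE, limma adjusted p = 0.023). VPS33B, a relative of the Sec1/Munc18 fusion proteins and counted here with HOPS and CORVET, had 4.74, 4.02 and 4.39 FPKM in AZD0095 cells, against 3.46, 2.6 and 2.78 FPKM in DMSO cells. Its lowest AZD0095 library stood above its highest DMSO library, and the log2 fold change was 0.45 ± 0.11 (SE, limma adjusted p = 0.041).

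RAB8B directs traffic from the Golgi and recycling endosomes to the cell surface. It had 27.5, 23.2 and 30.4 FPKM in AZD0095 cells, against 20.9, 20.4 and 18.1 FPKM in DMSO cells, with AZD0095 libraries all above DMSO libraries (log2 fold change 0.43 ± 0.11 SE, limma adjusted p = 0.046). Its close paralog RAB8A had 65 ± 2.47 FPKM in AZD0095 cells and 64.9 ± 0.882 FPKM in DMSO cells (SD, n = 3 each), with a log2 fold change of 0.00. RAB8B therefore made up 29.3 ± 2.24% of the summed RAB8 RNA in AZD0095 cells and 23.4 ± 1.59% in DMSO cells.

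ARF6, the ARF of the plasma membrane and of endosomal recycling, was the member called lower. It had 46.5, 43.7 and 42 FPKM in AZD0095 cells, against 55.6, 52.3 and 50.5 FPKM in DMSO cells, with no overlap between the groups. The log2 fold change was -0.26 ± 0.06 (SE, limma adjusted p = 0.046). The other 4 ARF genes had log2 fold changes between 0.00 for ARF1 and 0.15 for ARF3, none called, and ARF3 was at 0.05 without DMSO replicate 1.

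**Figure D1:**
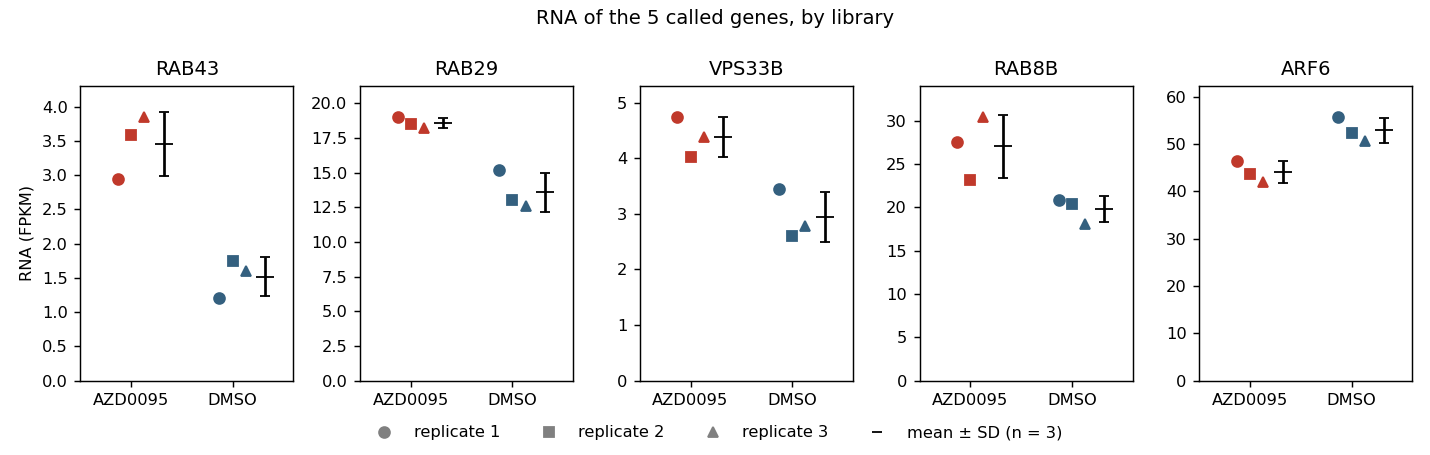
RNA level in FPKM (vertical axes, each from 0) of RAB43, RAB29, VPS33B, RAB8B and ARF6 in the 3 AZD0095 and 3 DMSO libraries, with the mean ± SD beside the points. In each panel the groups do not overlap, and ARF6 alone is lower in AZD0095 cells, at 42 to 46.5 FPKM against 50.5 to 55.6 FPKM in DMSO cells.

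Most of these calls were lost when certain single libraries were left out, but so were calls among all genes. The count over all genes, 545 with every library, was 100 without DMSO replicate 2 and 1112 without AZD0095 replicate 1. It was below 545 without any of the other libraries, so a lost call is not particular to these 5 genes. Without AZD0095 replicate 2 none of the 5 passed: the limma adjusted p was 0.051 for RAB43, 0.095 for RAB29, 0.099 for VPS33B, 0.051 for RAB8B and 0.16 for ARF6. RAB43 kept its call without any of the other libraries. Without AZD0095 replicate 3 the adjusted p was 0.068 for RAB29, 0.12 for VPS33B, 0.14 for RAB8B and 0.15 for ARF6. Without DMSO replicate 2 it was 0.11 for RAB29, 0.16 for VPS33B, 0.14 for RAB8B and 0.16 for ARF6, and without DMSO replicate 3 it was 0.076, 0.12, 0.14 and 0.078 for the same 4 genes. Without DMSO replicate 1 RAB8B (0.082) and ARF6 (0.12) lost the call. No direction changed, and the log2 fold changes without a library stayed within 0.73 to 0.91 for RAB43 and within -0.3 to -0.22 for ARF6. They stayed within 0.38 to 0.51 for RAB29, 0.39 to 0.54 for VPS33B and 0.34 to 0.53 for RAB8B.

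The replicate 1 RNA libraries of both groups stood apart from the others, and this touched many members: replicate 1 had the highest FPKM in both groups for 37 of the 88 genes (42%), against 33.9% of all genes. With replicate 1 fitted as a batch, 17 members were called, 16 higher and 1 lower, which is 19.3% of members against 24.5% of all genes in that fit. With replicates 2 and 3 alone, a fit added after seeing the data, 10 members were called, 7 higher and 3 lower (11.4% of members against 20.6% of all genes). All 5 genes above were among those called in each of these fits. RAB43 had log2 fold changes of 0.82 in both, with adjusted p-values of 0.00014 and 0.00046.

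The promoters of the called genes are printed to show what stands at their starts, from the RefSeq windows of 300 bases on GRCh38.p14. VPS33B had no entry in that table. Each line runs from 100 bases before the annotated start through the first 30 bases of the gene, and capitals mark GTCACGTG or its reverse complement CACGTGAC, the core of the element through which TFEB and its relatives act on lysosomal genes.
RAB43 (chr3:129122121-129122250, minus strand): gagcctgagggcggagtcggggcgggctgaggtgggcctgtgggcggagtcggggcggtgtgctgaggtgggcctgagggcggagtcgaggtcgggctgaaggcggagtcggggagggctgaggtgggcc
RAB29 (chr1:205775453-205775582, minus strand): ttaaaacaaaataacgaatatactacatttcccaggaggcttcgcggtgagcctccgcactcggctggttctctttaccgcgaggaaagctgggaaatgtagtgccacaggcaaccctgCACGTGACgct
RAB8B (chr15:63189506-63189635, plus strand): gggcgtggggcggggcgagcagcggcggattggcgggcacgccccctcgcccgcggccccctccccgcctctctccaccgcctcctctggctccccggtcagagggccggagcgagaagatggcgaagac
ARF6 (chr14:49892982-49893111, plus strand): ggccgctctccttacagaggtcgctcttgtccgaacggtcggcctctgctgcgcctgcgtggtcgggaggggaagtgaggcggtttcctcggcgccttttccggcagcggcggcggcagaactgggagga
Of these 4 windows RAB29 holds the core, 19 bases after the start. Of the 72 members with a window, 10 hold it (13.9%), against 358 of 5656 listed genes (6.33%) and 2.4% of all 35116 windows. The other 9 are AP1S2, RAB21, RAB24, RAB31, RAB5A, VPS16, VPS37B, VPS50 and VPS8, and none of their RNAs was called. Of all 358 listed genes with the core, 7.82% were called (15 higher and 13 lower). A match describes letters in the window and is not evidence of a bound site. In all 9 motifs were searched on both strands, and those shown on the sequences were chosen after their counts had been seen. GTCACGTG always holds an E-box, CACGTG, which itself was found in 14 members (19.4%, against 14% of listed genes).

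Short of the adjusted threshold, more members were higher than lower in AZD0095 cells. At an unadjusted p under 0.05, 18 members differed (20.5%, against 24.2% of all genes): 17 were higher (19.3%, against 14.1% of all genes) and 1 was lower (1.14%, against 10% of all genes). AZD0095 and DMSO libraries did not overlap for 28 members (31.8%, against 29.2% of all genes). Of these 26 were higher (29.5%, against 17.7%) and 2 lower (2.27%, against 11.5%). The log2 fold change was above 0 for 58 of the 88 (65.9%, against 52.3% of all genes), but its size was small, with a median of 0.05 against 0.01 over all genes. These counts share libraries and are a description of the members, not a test of them.

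The next genes by p served COPII and the endosomes, and none was called. SEC24D, a cargo-binding COPII subunit, had 34.1, 32.4 and 32.5 FPKM in AZD0095 cells, against 30.1, 27.8 and 28 FPKM in DMSO cells (log2 fold change 0.20 ± 0.06 SE, limma adjusted p = 0.099). VPS37B, an ESCRT-I subunit, had 37.1, 38.6 and 39 FPKM in AZD0095 cells, against 29.9, 31.5 and 35.7 FPKM in DMSO cells (0.24 ± 0.08 SE, limma adjusted p = 0.1). RAB9A, which returns cargo from late endosomes to the Golgi, had 16.1, 12.2 and 14.5 FPKM in AZD0095 cells, against 12.2, 10.9 and 10.7 FPKM in DMSO cells (0.31 ± 0.11 SE, limma adjusted p = 0.13). The groups of the first 2 were clear of each other by more than 1 FPKM, while for RAB9A the lowest AZD0095 and the highest DMSO library both rounded to 12.2 FPKM. VPS39 of the HOPS tether (log2 fold change 0.26), VPS53 of GARP and EARP (0.23), RAB31 (0.21) and the recycling RAB11A (0.21) had limma adjusted p-values of 0.11 to 0.14. Without AZD0095 replicate 1 the RAB11A log2 fold change was 0.13 (limma adjusted p = 0.16). With replicate 1 as a batch all 7 of these genes were called, at adjusted p-values of 0.013 to 0.034, and with replicates 2 and 3 alone SEC24D (0.042) and RAB31 (0.041) were.

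Differences in coat RNAs between treatments were small. None of the 26 COPI, COPII and AP genes was called in RNA, and their log2 fold changes ran from -0.09 to 0.20, with 19 above 0 (73.1%, against 52.3% of all genes) and 3 genes (AP1M1, AP1S1 and SEC24D) at an unadjusted p under 0.05 (11.5%, against 24.2%). Among the adaptors, 5 of 11 had AZD0095 libraries wholly above DMSO libraries (45.5%, against 17.7% of all genes): the AP-1 subunits AP1B1, AP1M1 and AP1S1, which sort at the trans-Golgi network, and AP2B1 and AP2M1 of the endocytic AP-2. AP1M1 had 94.9 ± 1.74 FPKM in AZD0095 cells and 87.1 ± 2.60 FPKM in DMSO cells (SD, n = 3 each; log2 fold change 0.12, limma adjusted p = 0.17). No AP-3 gene was so separated, nor were AP1S2 and AP2S1.

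Promoters of 4 COPI and 4 COPII genes shared a sequence that the choice of members did not use, though it was picked after its counts had been seen. TGACGTG, or CACGTCA on the other strand, is the core of elements bound by XBP1 and ATF6 in the unfolded protein response, and it stood in the windows of 10 of the 72 members (13.9%), against 213 of 5656 listed genes (3.77%) and 1.97% of all windows. The 10 were 4 of 7 COPI genes (COPA, COPB1, COPB2 and COPE), 4 of 7 COPII genes with a window (SEC13, SEC16A, SEC23A and SEC24A), ARF1 and RAB27A. None of 8 AP and none of 15 VPS windows held it. The stretches around it in 5 of these genes are shown to compare its setting, with the core in capitals.
COPA (chr1:160343221-160343275, minus strand): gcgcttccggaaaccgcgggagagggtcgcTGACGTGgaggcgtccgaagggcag
COPE (chr19:18919358-18919421, minus strand): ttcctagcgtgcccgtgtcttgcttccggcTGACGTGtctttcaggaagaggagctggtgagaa
SEC23A (chr14:39103206-39103269, minus strand): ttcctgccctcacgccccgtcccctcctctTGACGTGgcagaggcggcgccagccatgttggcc
SEC24A (chr5:134648576-134648642, plus strand): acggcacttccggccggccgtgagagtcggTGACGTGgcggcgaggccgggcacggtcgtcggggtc
ARF1 (chr1:228082662-228082728, plus strand): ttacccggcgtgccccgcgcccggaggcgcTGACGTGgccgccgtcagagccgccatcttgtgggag
In the 10 genes the first base of the core lay between positions -223 and 16, counted from 0 at the start annotated for its window. Of the 72 members 18 had several windows, and the first by position that held the core was taken. Such a start can lie inside the gene. The RAB27A core lay within chr15:55237580-55237643, while the gene, on the minus strand, begins at 55319123. The SEC24A stretch also lies inside its gene, which begins at 134648382. None of the 10 was called in RNA, with log2 fold changes from -0.06 for COPB2 to 0.24 for RAB27A and a median of 0.04. Of all 213 listed genes with the core, 9.39% were called, 10 higher and 10 lower. Another shared element was CCGGAAG, a site for ETS factors, in 32 of 72 members (44.4%), against 25.9% of listed genes and 10.3% of all windows. The other 5 motifs searched were rarer in members than in listed genes. No member window held the endoplasmic reticulum stress element of ATF6, CCAAT and CCACG with any 9 bases between (0%, against 0.194% of listed genes), or the ATF4 element TGATGNAA (0%, against 2.55%). The cyclic AMP response element TGACGTCA stood in 2.78% of members against 4.51%, the E2F site GGCGGGA in 26.4% against 32.1%, and CCAAT in 36.1% against 44.2%.

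The classes carried unlike amounts of footprint signal per RNA in both treatments. The footprint/RNA ratio, the quotient of the geometric means of footprint and RNA FPKM in a group, stands for ribosome occupancy per transcript. Its median over the members was 2.8 in AZD0095 cells and 2.47 in DMSO cells, against 2.31 and 2.21 over all genes. The GTPases were high: the median ratio of the RABs was 3.28 in AZD0095 cells and 3.13 in DMSO cells, that of the ARFs 4.61 and 4.1, and that of the SAR1 genes 6.34 and 5.98. The COPII coat was low, at 0.949 in AZD0095 cells and 1.03 in DMSO cells, and 1 of its 8 genes (SEC13) stood above the median of all genes in DMSO cells. COPI (2.21 and 2.28), SEC22 (1.76 and 1.71), VPS (2.7 and 2.43) and AP genes (2.04 and 1.61) lay between, given for AZD0095 cells and then DMSO cells. The labels do not state the lengths by which each assay was scaled, so a ratio compares genes only on these deposited scales. In DMSO cells the ratio also fell with the length recovered from footprint reads, with rho = -0.55 over 1077 genes and -0.65 over 12 members. That length is the divisor implied for the footprint FPKM (653 bases for RAB8A and 2657 for VPS39), not the span of the gene. It therefore enters the ratio itself, and part of this relation is built in. The part of length in the differences between classes was not tested. Across the 88 members the ratio in AZD0095 cells followed that in DMSO cells (r = 0.91 and rho = 0.91 on the log2 scale, with depth and gene length shared by the points).

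**Figure D2:**
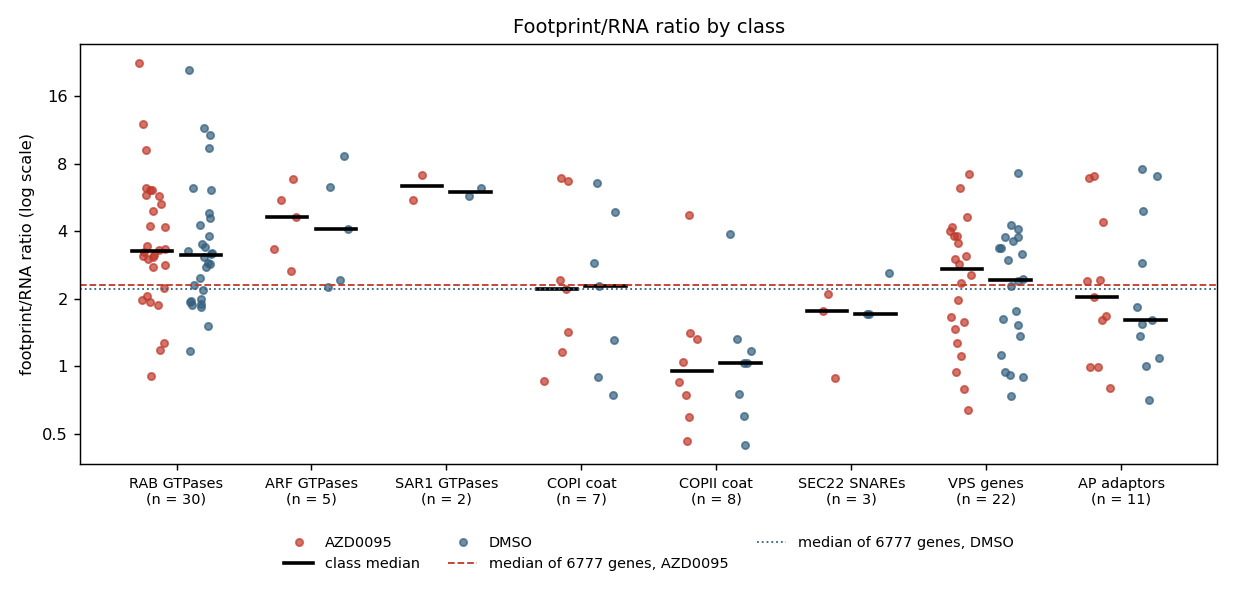
Footprint/RNA ratio on a log scale (vertical axis) of each member, by class, in AZD0095 cells (left of each pair) and DMSO cells (right). Points are genes, black bars class medians, and the lines mark the medians of all 6777 genes (2.31 in AZD0095 cells and 2.21 in DMSO cells); the COPII median lies lowest in both.

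Members with the highest ratios were small GTPases. RAB21, an early endosomal RAB known for integrin traffic, had 4.86 ± 0.0104 RNA FPKM and 113 ± 36.4 footprint FPKM in AZD0095 cells, against 4.70 ± 0.346 and 100.0 ± 28 FPKM in DMSO cells (SD, n = 3 each). Its ratio was 22.4 in AZD0095 cells and 20.8 in DMSO cells, where it exceeded that of 99.2% of all genes, and rested on 11 to 49 implied reads per AZD0095 library and 7 to 12 per DMSO library. RAB11B (12 in AZD0095 cells and 11.5 in DMSO cells), RAB2A (3.42 and 10.7), RAB43 (9.16 and 9.39) and ARF5 (6.8 and 8.62) completed the 5 highest in DMSO cells. The lowest were SEC24A (0.595 in AZD0095 cells and 0.447 in DMSO cells), the COPII scaffold SEC16A (0.465 and 0.598), AP3B1 (0.802 and 0.705), VPS39 (0.638 and 0.736) and COPB1 (0.862 and 0.746). The VPS39 ratio rested on 2, 1 and 11 implied reads in the AZD0095 libraries and 1, 1 and 3 in the DMSO libraries, so its rank is uncertain.

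Small coat subunits mostly carried more footprints per RNA than large ones. In COPI, the small COPZ1 had a ratio of 6.88 in AZD0095 cells and 6.56 in DMSO cells and COPE 6.68 and 4.86, while the large COPB1 had 0.862 and 0.746 and COPB2 1.16 and 0.9. In COPII, SEC13 had 4.74 in AZD0095 cells and 3.88 in DMSO cells, and the cargo adaptors SEC24A, SEC24C and SEC24D lay between 0.595 and 0.849 in AZD0095 cells and between 0.447 and 1.17 in DMSO cells. Among adaptors, the sigma subunits AP2S1 (7.04 and 7.58) and AP1S1 (6.89 and 7.06) were high and the large AP2B1 (0.989 and 1.08) and AP3B1 were low. Over these 26 genes the median ratio was 6.68 in AZD0095 cells and 4.86 in DMSO cells for 7 small subunits, and 1.11 and 1.06 for 16 large ones. Exceptions were AP3S1 (0.995 and 1) and AP1S2 (2.04 and 1.83) among the small, and COPA, COPG1 and AP3D1 among the large, which exceeded the all-gene median of 2.21 in DMSO cells. The grouping by size was made after the values had been seen and is a description. It also ran with length in general: over the 1077 genes with a length recovered from footprint reads, ratio and length in DMSO cells had rho = -0.55. The same length divides the footprint FPKM of the ratio.

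**Figure D3:**
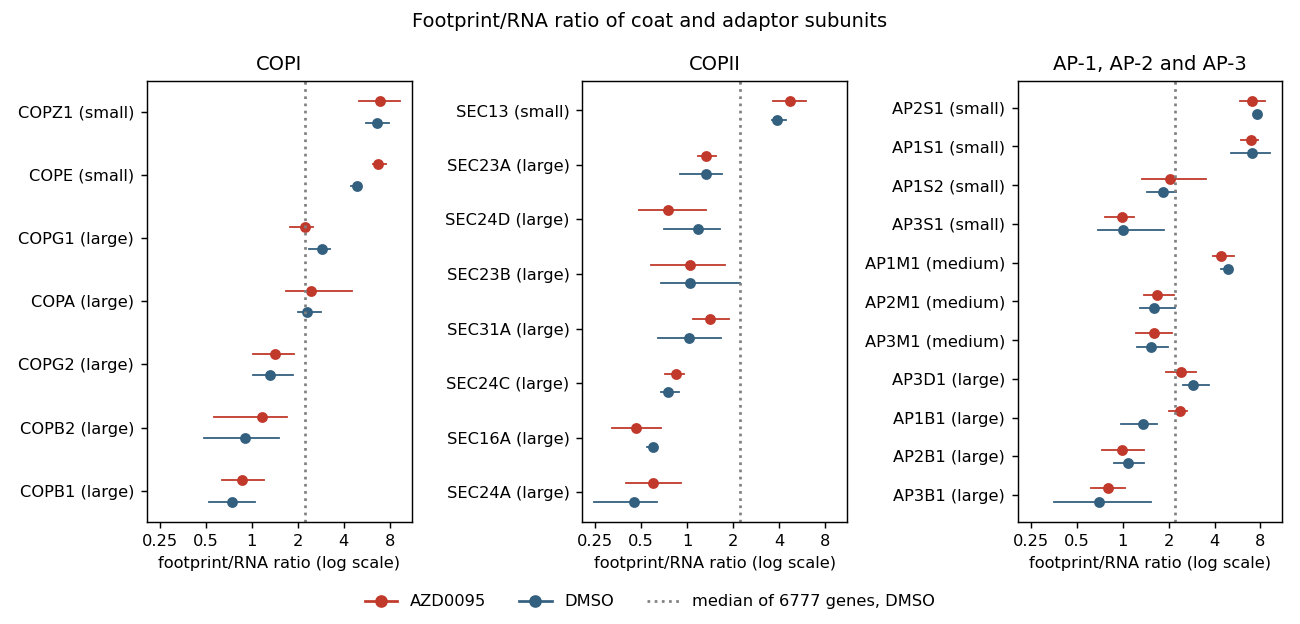
Footprint/RNA ratio on a log scale (horizontal axis) of the subunits of COPI, COPII and the AP adaptors, with AZD0095 above DMSO for each gene. Points are group ratios, lines run from the lowest to the highest footprint library over the mean RNA, and the dotted line is the median of 6777 genes in DMSO cells; COPZ1, COPE, SEC13, AP1S1 and AP2S1 lie to its right.

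Paralogs divided RNA and footprints unequally. RAB11A held 79.0 ± 2.38% of the RAB11 RNA in AZD0095 cells and 76.1 ± 0.787% in DMSO cells, but 41.3 ± 2.87% and 35.1 ± 7.02% of the RAB11 footprints (SD, n = 3 each). RAB11B thus held most of the RAB11 footprint FPKM and the lesser share of the RNA FPKM. ARF1 made up 80.6 ± 0.0612% of ARF1 and ARF3 RNA in AZD0095 cells and 82.1 ± 0.868% in DMSO cells, with 87.2 ± 2.13% and 92.3 ± 3.60% of their footprints. ARF4 was the most abundant member in RNA, at 504 ± 6.46 FPKM in AZD0095 cells and 486 ± 17.1 FPKM in DMSO cells. SEC23A and SEC23B were near parity in RNA (SEC23A share 47.7 ± 2.10% and 48.2 ± 1.19%). Reads that fit more than 1 paralog could be split between them, so shares of near-identical members are uncertain.

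Footprints gave no call after AZD0095. None of the 88 members and none of the 6777 genes (0%) passed the adjusted threshold in limma, and 3 members had an unadjusted p under 0.05 (3.41%, against 7.82% of all genes). The 3 were RAB2A, lower (1.14% of members, against 3.72% of all genes), and RAB34 and RAB1A, higher (2.27%, against 4.1%). The footprint log2 fold change was above 0 for 60 members (68.2%, against 53.1% of all genes), with a median of 0.16 against 0.04. The median standard deviation of a member within its group was 0.43 log2 units in both groups for footprints, against 0.09 in AZD0095 cells and 0.08 in DMSO cells for RNA, so only large footprint differences could have been detected at this depth.

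RAB2A, which acts between the endoplasmic reticulum and the Golgi and in lysosome fusion, had 47.6, 154 and 201 footprint FPKM in AZD0095 cells, against 201, 414 and 557 FPKM in DMSO cells. AZD0095 replicate 3 and DMSO replicate 1 were nearly equal, and the groups just touched. The log2 fold change was -1.65 ± 0.51 (SE, limma adjusted p = 0.63), and without AZD0095 replicate 1 it was -1.02. RAB2A RNA was 33.4 ± 2.3 FPKM in AZD0095 cells and 33.7 ± 1.28 FPKM in DMSO cells (SD, n = 3 each). In the ratio the difference was -1.63 ± 0.64 on the log2 scale (SE, limma adjusted p = 0.49).

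RAB1A, another RAB of traffic between the endoplasmic reticulum and the Golgi, had 416, 391 and 314 footprint FPKM in AZD0095 cells, against 287, 188 and 209 FPKM in DMSO cells. RAB34, known for Golgi and ciliary membrane traffic, had 260, 355 and 294 FPKM in AZD0095 cells, against 189, 121 and 193 FPKM in DMSO cells. In both genes the groups were clear of each other, with footprint log2 fold changes of 0.73 ± 0.27 and 0.87 ± 0.29 (SE, limma adjusted p = 0.63 for each). COPE, the epsilon subunit of COPI, had 355, 428 and 363 footprint FPKM in AZD0095 cells, against 283, 245 and 281 FPKM in DMSO cells (log2 fold change 0.50 ± 0.24 SE, limma adjusted p = 0.65). RAB18, a RAB of the endoplasmic reticulum and lipid droplets, had 249, 283 and 232 FPKM in AZD0095 cells, against 210, 140 and 160 FPKM in DMSO cells (0.60 ± 0.28 SE, limma adjusted p = 0.65).

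**Figure D4:**
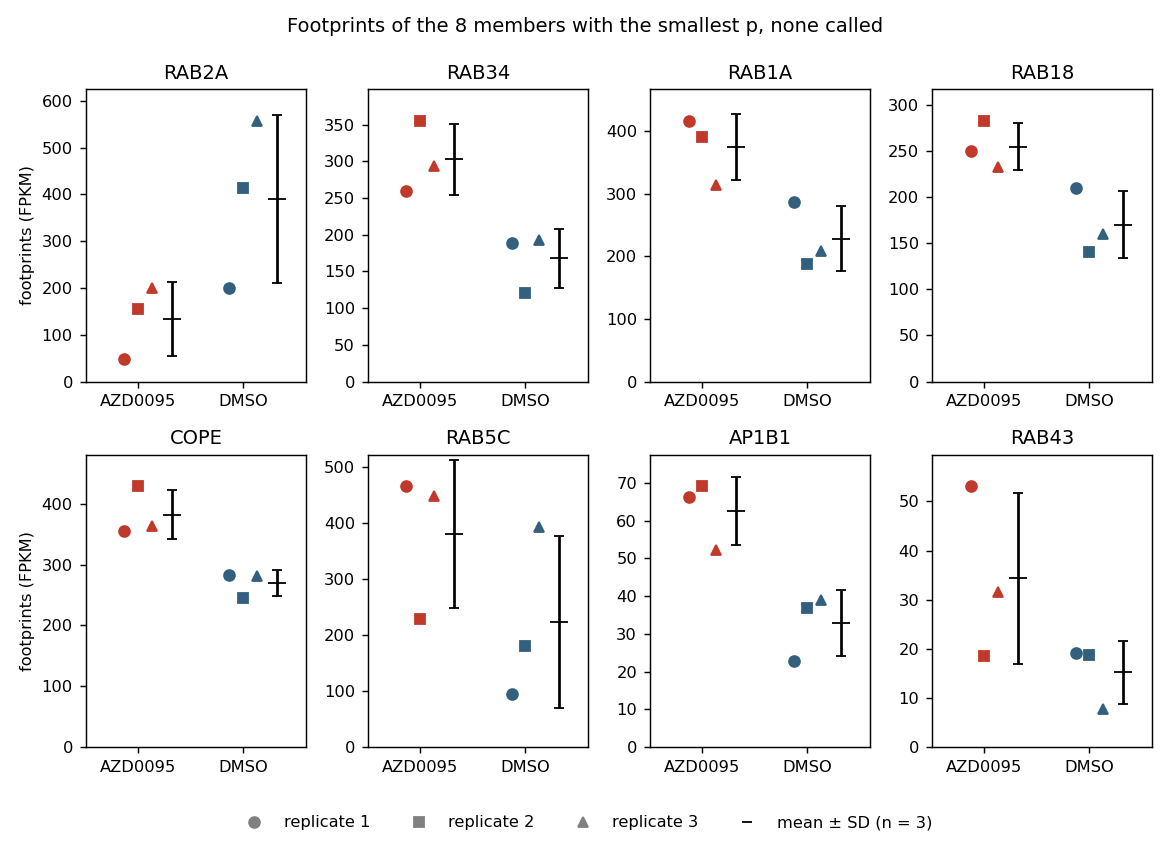
Footprint level in FPKM (vertical axes, each from 0) of the 8 members with the smallest footprint p, none of them called, in the 3 AZD0095 and 3 DMSO libraries, with the mean ± SD. RAB34, RAB1A, RAB18, COPE and AP1B1 have all AZD0095 libraries above all DMSO libraries, while RAB2A is the gene lower in AZD0095 cells (47.6 to 201 FPKM against 201 to 557 FPKM).

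Footprint groups did not overlap for 10 of 88 members, 8 higher (9.09%, against 7.19% of all genes) and 2 lower (2.27%, against 5.77%). Besides RAB1A, RAB34, RAB18 and COPE the higher ones were AP1B1, RAB11A, RAB22A and RAB24, and the lower ones were RAB30 and ARF1. AP1B1, RAB11A, RAB24 and RAB34 were also separated in RNA in the same direction. The share of all genes separated in both assays was not counted, so this is a description only. ARF1, at 1465, 1406 and 1489 footprint FPKM in AZD0095 cells against 1736, 1606 and 1635 FPKM in DMSO cells, differed by -0.19 ± 0.16 on the log2 scale (SE, limma adjusted p = 0.81). The Golgi RAB30 had 13.3, 8.78 and 8.87 FPKM in AZD0095 cells, against 19.6, 17.8 and 20.1 FPKM in DMSO cells (-0.85 ± 0.53 SE, limma adjusted p = 0.73).

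The 5 genes called in RNA were not called in footprints. Their footprint log2 fold changes were 1.10 ± 0.61 for RAB43, 0.89 ± 0.59 for VPS33B, 0.40 ± 0.44 for RAB8B, -0.09 ± 0.30 for ARF6 and -0.49 ± 0.68 for RAB29 (SE, limma adjusted p = 0.7, 0.76, 0.86, 0.97 and 0.9). Single libraries moved these values. RAB43 was at 0.73 without AZD0095 replicate 1 and 0.71 without DMSO replicate 3, VPS33B at 0.58 without DMSO replicate 3, and RAB8B between 0.18 without AZD0095 replicate 3 and 0.8 without AZD0095 replicate 1. RAB29 was at 0.03 without DMSO replicate 2 and ARF6 at 0.13 without AZD0095 replicate 2, both with the opposite sign. RAB29 had 50.8, 10.8 and 19.1 footprint FPKM in AZD0095 cells, against 19, 65.9 and 24.5 FPKM in DMSO cells, with replicates of a group differing severalfold. VPS33B rested on 3, 10 and 18 implied reads in the AZD0095 libraries and 2, 3 and 2 in the DMSO libraries. Among the 12 members whose footprint values came to whole reads, a library held 1 to 151 reads per gene in AZD0095 cells and 1 to 64 in DMSO cells.

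No member and no gene (0%) was called in the footprint/RNA ratio, tested in limma as the interaction of assay and treatment. At an unadjusted p under 0.05, 7 members differed (7.95%, against 8.53% of all genes): RAB1A, RAB34, RAB18, COPE and AP1B1 higher (5.68%, against 4.68%), and RAB2A and RAB30 lower (2.27%, against 3.85%). The log2 difference was above 0 for 54 members (61.4%, against 52.4% of all genes). For the 7, log2 differences ranged from -1.63 for RAB2A to 0.80 for RAB1A, with limma adjusted p-values of 0.47 to 0.58. RNA and footprint changes of the members were weakly related (r = 0.27 and rho = 0.16 over 88 genes from the same libraries, against 0.15 and 0.12 over all genes).

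**Figure D5:**
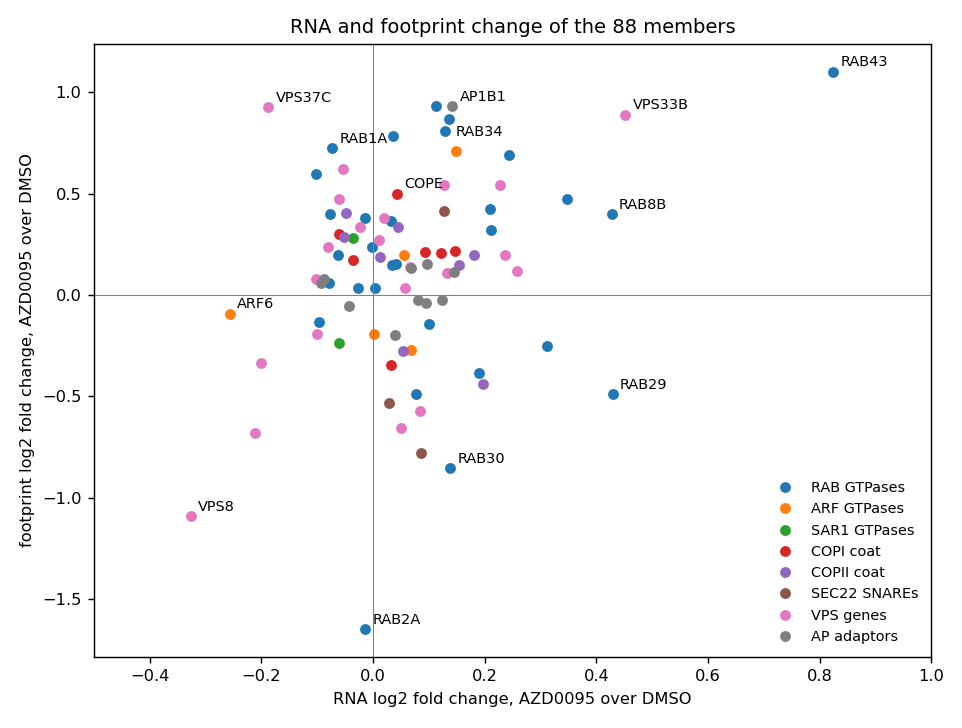
Log2 fold change of AZD0095 over DMSO in RNA (horizontal axis) and in footprints (vertical axis) for the 88 members, coloured by class, with some genes named. Most points lie within 0.4 of 0 in RNA and spread from -1.65 (RAB2A) to 1.10 (RAB43) in footprints.

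Other genes of the pathway, taken from 6 lists of regulators and partners, held calls in RNA at shares on both sides of the 8.04% of all genes: 13.8% of the listed ARF and SAR1 regulators, 11.1% of the RAB cycle factors, 6.06% of the SNARE genes and 5.71% of the tethers were called, with none in the other 2 lists. Their median log2 fold changes ran from -0.04 for the RAB cycle factors to 0.05 for the SNARE genes, against 0.01 over all genes. Among 27 listed RAB cycle factors, such as exchange factors, GTPase activators and effectors, TBC1D1 (log2 fold change 0.33) and RAB11FIP5 (0.39) rose and RIN2, an exchange factor for RAB5, fell (-0.31). Among 29 ARF and SAR1 regulators and relatives, the ARF exchange factor CYTH1 rose to 9.46 ± 0.663 FPKM in AZD0095 cells, against 6.34 ± 0.159 FPKM in DMSO cells (SD, n = 3 each; log2 fold change 0.51 ± 0.08 SE, limma adjusted p = 0.01). The ARF GTPase activator GIT2 also rose (0.29) and ARL6IP1 fell (-0.22). Of 33 SNARE and Sec1/Munc18 genes, the Golgi and endosomal syntaxin STX16 rose (0.24). Of 35 tethers and golgins, TRAPPC4 rose (0.27) and COG2 fell (-0.33). Without AZD0095 replicate 2 (limma adjusted p = 0.058 to 0.15), and likewise without DMSO replicate 2 (0.064 to 0.19), none of the genes named from these lists was called. None of 34 other coat subunits and none of 21 ESCRT and sorting nexin partners was called by limma, with 4 and 3 genes at an unadjusted p under 0.05 (11.8% and 14.3%, against 24.2% of all genes) and log2 fold changes above 0 for 22 and 15 (64.7% and 71.4%, against 52.3% of all genes). No gene of the 6 lists was called in footprints or in the ratio. In footprints 1 of 27 RAB cycle factors and 3 of 29 ARF and SAR1 regulators had an unadjusted limma p under 0.05. So did 3 of 34 coat subunits, 1 of 33 SNARE genes, 5 of 35 tethers and 1 of 21 ESCRT partners, against 7.82% of all genes. In the ratio the counts were 2, 3, 4, 1, 5 and 1 in the same order, against 8.53% of all genes. The RNA of SLC16A3, which encodes the drug's target, was 98.2, 105 and 110 FPKM in AZD0095 cells, against 87.2, 102 and 106 FPKM in DMSO cells (log2 fold change 0.09, limma adjusted p = 0.56), a level that does not report on inhibition of the protein.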

How the data were processed

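MDA-MB-231 cells were profiled by RNA-seq and ribosome footprinting, and groups and replicate numbers came from the labels. The authors deposited FPKM values in a table per library, and the submitters' processing notes name hg38 as the build and STAR, Bowtie2 and fastp as tools. How these were set, how reads were counted and by which lengths FPKM were scaled is not given in the sources used here. Per the labels' protocols, ribosomes were pelleted after digestion with RNase I and rRNA was removed from the footprints. Titles call the RNA libraries total RNA and the molecule field polyadenylated RNA.

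Of 6785 listed genes, 8 repeats were removed and 6777 tested. Values were transformed as log2(FPKM + 1), so fold changes of low genes are understated. RNA and footprints were compared with two-sided limma (3.58.1, R 4.3.3) with a variance trend, and the ratio as the interaction over 12 libraries. The Benjamini-Hochberg method ran over all genes, with calls at adjusted p-values under 0.05. A filter at a mean of 1 FPKM removed no gene. Footprint reads were recovered from the steps of the FPKM values, within 0.02 of a read, for 1077 genes (15.9%) and 12 members. A count test on them was not made. The depth of the RNA libraries stayed unknown, since at most 5 genes shared a ratio between RNA libraries against 91 between footprint libraries. The steps were tested on simulated data. Gene positions and promoter windows are RefSeq's, on GRCh38.p14, and a gene with several windows held a motif if any of them did.

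Members, classes and lists were chosen with earlier results of these data known. Named are the called members, the smallest p up to 12 in RNA and 8 each in footprints and ratio, the extremes of level and ratio, and paralog sets; the separated adaptors, ARF3 and subunits by size were added after their values were seen. Alternatives were other pseudocounts and filters, scalings, limma without trend, replicate terms and each library left out. Some called genes of the pathway lists are not reported here.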

Additional observations from a re-analysis of the deposited data

How the results depend on the processing

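In RNA the count of called members (5) depended on the fit. It was 3 with a mean of at least 5 FPKM, where RAB43 and VPS33B were not tested. It was also 3 in limma without trend, where RAB8B (adjusted p = 0.052) and ARF6 (0.061) lost their calls. In each of these fits at least 517 of all genes tested were called, against 545 in the main fit. The member count was 17 with replicate 1 as a batch (1660 of all genes) and 10 with replicates 2 and 3 only (1395 of all genes). Leaving out a library gave 0 to 5 members and 100 to 1112 of all genes, against 545. Whether samples were paired by replicate number is not settled. Deviations of same-numbered libraries correlated at 0.622, 0.0857 and 0.489 in RNA and at 0.00878, -0.0223 and 0.0913 in footprints. Differently numbered RNA libraries ran from -0.57 to 0.303, the latter for AZD0095 replicate 2 with DMSO replicate 3. Deviations from a mean of 3 libraries depend on each other, so these values cannot decide the question. With a replicate block 18 members and 1622 genes were called in RNA, and no member in footprints or the ratio.

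Footprints gave 0 calls under all 16 alternatives. In the ratio no member was called under 23 alternatives, and of all genes 4 were called without DMSO footprint replicate 1, 3 without replicate 2 and 1 without trend. In AZD0095 cells in place of DMSO cells the members' median RNA was 37.6 FPKM (34.1 in DMSO cells) and their median ratio 2.8 (2.47). Leaving out a DMSO library gave medians of 33.6 to 34.5 FPKM for RNA, 76.6 to 87.5 FPKM for footprints and 2.49 to 2.72 for the ratio. Of the log2 fold changes recomputed, those of ARF1, RAB8A and COPB2 in RNA and of RAB29 and ARF6 in footprints turned their sign under an alternative, and none of these was a call. Leaving out a library gave -0.05 to 0.05 for ARF1, -0.03 to 0.02 for RAB8A, -0.16 to 0.02 for COPB2, -1.07 to 0.03 for RAB29 footprints and -0.22 to 0.13 for ARF6 footprints. With quantile normalization ARF1 and RAB8A were at -0.01, and with replicates 2 and 3 only ARF1 was at -0.00. STX16 and TRAPPC4 lost their calls with median centring (adjusted p = 0.062 and 0.051) and with quantile normalization (0.066 and 0.064). AZD0095 footprint libraries were on average 2.03 times as deep as DMSO ones, and the part of depth in the footprint values was not tested.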
